A study of Danio rerio with 6 samples.

Results

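The Hox genes were taken as every listed gene whose symbol is hox followed by a cluster letter from a to d and a number. By this rule 47 of the 32266 genes listed for each library were Hox genes. They carry 13 paralog group numbers: 10 genes belong to the anterior groups 1 to 3, 15 to the central groups 4 to 8 and 22 to the posterior groups 9 to 13. The symbol table gives many of them in upper case and without the letter that tells duplicated zebrafish copies apart. Of the 47 identifiers, 32 have no copy letter, and 4 symbols (HOXA11, HOXB5, HOXC6 and HOXC12) are each carried by 2 identifiers, which are given here by their identifier.

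RNA-seq was performed on whole zebrafish embryos of the Tubingen (TU) strain at 50% epiboly, the stage at which the blastoderm has covered 50% of the yolk and gastrulation begins. Wild-type (WT) embryos were compared with MZsmad4a embryos, which lack both the maternal and the zygotic product of smad4a because both parents are homozygous for smad4aΔ14, a short frameshift deletion made with CRISPR/Cas9. Each genotype had 3 libraries and each library pooled 25 embryos, so that differences between embryos or tissues within a pool cannot be seen. Smad4a is a common partner of the receptor-activated Smads of the BMP and Nodal pathways, and the second zebrafish copy, smad4b, is intact in both genotypes.

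Hox genes encode homeodomain transcription factors that give cells their position along the head-to-tail axis. They lie in clusters in the order in which they are used, with group 1 at the 3′ end and group 13 at the 5′ end. The genes at the 3′ end are switched on first, from gastrulation onwards, and mark the hindbrain, and those at the 5′ end follow in the trunk and tail. Retinoic acid, FGF and Wnt signals and the caudal (Cdx) factors act upstream of them, and Pbx and Meis proteins bind DNA together with them.

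The libraries held between 9807865 and 20833491 expected counts, and the shallowest was WT replicate 1. In the fit over all genes, smad4a stood at 59.3 ± 4.02 CPM (counts scaled to library size; SD, n = 3) in WT and fell to 14.3 ± 1.13 CPM in MZsmad4a (log2 fold change −2.05, SE 0.13, edgeR adjusted p = 0.000546), and smad4b was at 2.95 ± 0.238 and 2.56 ± 1.21 CPM (adjusted p = 0.827). For smad4a every MZsmad4a library was below every WT library, so the labels held. All 13 markers of the layers of the epiboly embryo had enough counts to be tested, from mxtx2 of the yolk syncytial layer at 2.29 CPM to krt4 of the enveloping layer at 2398 CPM in WT. The 5 matched markers of later tissues stood between 0 and 0.993 CPM.

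Hox transcripts were scarce at this stage. Of the 47 genes, 14 had no count in any of the 6 libraries, 21 had a highest count of 1 or 2, 9 reached 3 counts but not 10, and 3 reached 10 counts in at least 1 library. These 3 were hoxb1a, hoxb1b and hoxc1a, all of paralog group 1. Only 6.38% of Hox genes reached 10 counts in any library, against 53.5% of all listed genes. A count of 0 allows a level of up to 3 counts, which corresponds to 0.143 CPM in the deepest library and 0.283 CPM in the shallowest, so a gene without counts was not detectable at this depth and may still be transcribed. These limits cover counting error only.

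**Figure D1:**
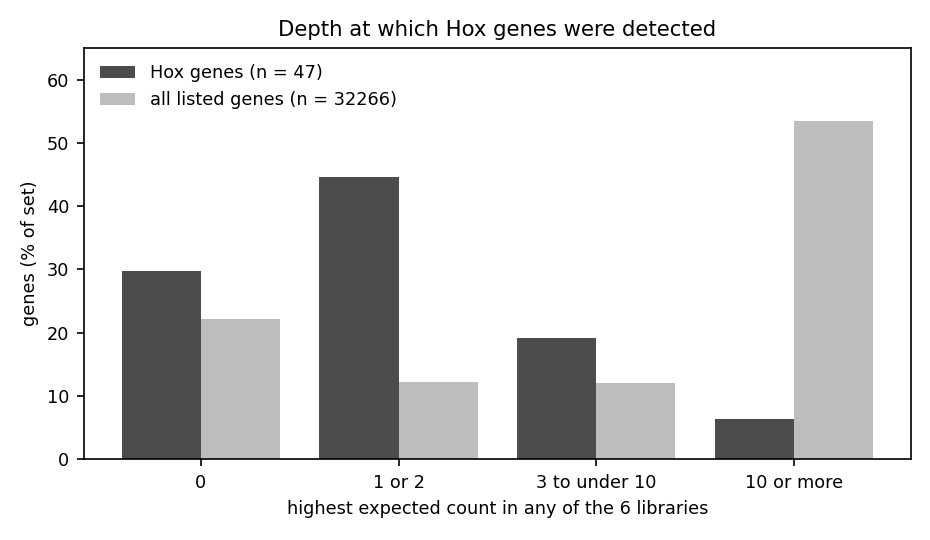
Share of Hox genes (dark bars, 47 genes) and of all listed genes (light bars, 32266 genes) by the highest expected count reached in any of the 6 libraries, in % of each set. Hox genes were concentrated at counts of 1 or 2 (44.7% of them, against 12.2% of all genes), whereas most listed genes reached 10 or more.

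A gene was called on in a genotype where each of its 3 libraries held at least 3 expected counts. By this measure 3 Hox genes were on in WT (hoxb1a, hoxb1b and hoxc1a) and 1 was on in MZsmad4a (hoxb1b). Among all listed genes 51.7% were on in WT and 52.0% in MZsmad4a. Of the markers of later tissues, MYOD1 was on in both genotypes (8, 26 and 18 counts in WT, 20, 5 and 7 in MZsmad4a). actc1b was on in WT (3, 9 and 3 counts), and MYOG, neurog1 and hbae3 were on in neither. In WT MYOD1 averaged 0.993 CPM, above hoxb1a (0.606), hoxb1b (0.338) and hoxc1a (0.918). Being on by this measure therefore does not set these Hox genes apart from such markers. At this minimum group 1 was the single paralog group with a member that was on, in either genotype, and lower minimums added genes of other groups. With 1 count required in every library, HOXB3 and HOXC10 joined in WT, and hoxb1a, HOXC6 (ENSDARG00000101954), hoxb8b and HOXC12 (ENSDARG00000070352) joined in MZsmad4a. When TPM, a level per transcript length, was used instead, no Hox gene reached 1 TPM in every library of a genotype. At 0.1 TPM the same 3 genes were on in WT, and hoxb1b, hoxb8b and HOXC12 (ENSDARG00000070352) in MZsmad4a. Only hoxb1a and hoxb1b reached 1 TPM in any library.

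Group 1 held 17, 48 and 31 counts in WT replicates 1, 2 and 3, and 37, 20 and 7 counts in the MZsmad4a replicates. This amounted to 58.9% of the 163 Hox counts of WT and 57.7% of the 111 Hox counts of MZsmad4a. The summed level of the group was 1.44 ± 0.117 TPM in WT and 1.40 ± 1.06 TPM in MZsmad4a, with the MZsmad4a libraries at 2.49, 1.34 and 0.38 TPM. The genotypes thus overlapped in the sum, and the MZsmad4a libraries differed from each other more than the WT libraries did. The sum hides differences among its members, which are described one by one below. hoxb1a and hoxc1a were lower in every MZsmad4a library, whereas hoxb1b had a higher mean in MZsmad4a with overlapping libraries.

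**Figure D2:**
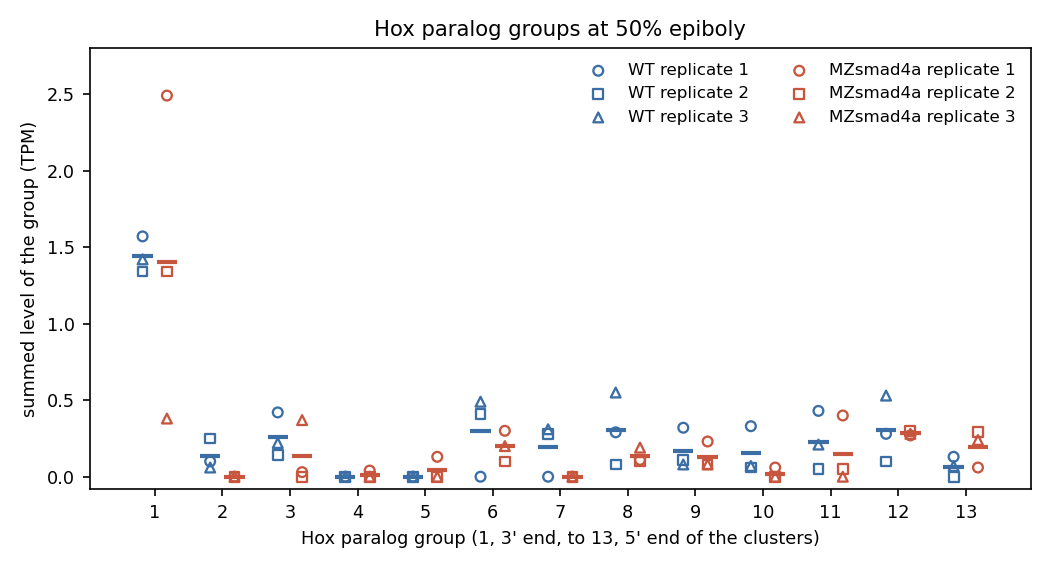
Summed level of each Hox paralog group (x axis, group 1 at the 3′ end of the clusters to group 13 at the 5′ end) in TPM, with 1 symbol per library for 3 WT and 3 MZsmad4a libraries. Group 1 lies at 1.34 to 1.57 TPM in WT and at 0.38 to 2.49 TPM in MZsmad4a, and the other groups lie below it in WT, with no library above 0.55 TPM in either genotype.

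hoxb1a, which in the zebrafish hindbrain marks rhombomere 4, had 8, 12 and 9 counts in the WT replicates and 4, 1 and 2 counts in the MZsmad4a replicates. In TPM it stood at 1.07, 0.74 and 0.66 in WT and at 0.29, 0.07 and 0.13 in MZsmad4a. It was the highest Hox gene per length in WT, at 0.823 ± 0.217 TPM, and every MZsmad4a library was below every WT library. Mean CPM was 4.65-fold lower in MZsmad4a. As a log2 ratio of MZsmad4a over WT this was −2.22 with all libraries. It was between −2.92 and −1.85 when 1 library was left out. By exact permutation of the libraries (two-sided) p was 0.1, and 3 libraries against 3 cannot go below this. The gene had too few counts to enter the main test. In the edgeR fit without a filter its log2 fold change was −2.13 (SE 0.68, adjusted p = 0.145), so the difference was not significant after adjustment over all genes.

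hoxb1b, the first Hox gene to be transcribed in the zebrafish gastrula, had a higher mean in MZsmad4a, but its libraries overlapped. It had 3, 5 and 9 counts in WT and 33, 17 and 4 counts in MZsmad4a, or 0.37, 0.29 and 0.61 TPM against 2.2, 1.12 and 0.24 TPM. Replicates 1 and 2 of MZsmad4a were above all WT libraries, whereas replicate 3 was below all of them in TPM. It was the highest Hox gene per length in MZsmad4a, at 1.19 ± 0.982 TPM, an SD close to the mean. Mean CPM was 3.01-fold higher in MZsmad4a, but the libraries overlapped and p was 0.4 by exact permutation (two-sided). Without MZsmad4a replicate 1 the log2 ratio fell to 0.77 from 1.59. In the edgeR fit without a filter the log2 fold change was 1.56 (SE 0.71, adjusted p = 0.344).

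Some other genes, chosen here after their values were seen, had the same order as hoxb1b among the MZsmad4a libraries, and others of the ectoderm did not. In MZsmad4a replicates 1, 2 and 3, hoxb1b was at 1.90, 0.939 and 0.210 CPM. CYP26A1, which degrades retinoic acid, was at 97.6, 70.9 and 44.1 CPM. GBX1, a homeobox gene of the early hindbrain, was at 25.7, 18.1 and 8.57 CPM. OTX2, a homeobox gene of the forebrain and midbrain, was at 35.1, 18.9 and 8.99 CPM. These were highest in replicate 1 and lowest in replicate 3. So were genes of other kinds, such as krt4 of the enveloping layer (2917, 2691 and 2492 CPM) and cdx4 (80.8, 66.3 and 62.5 CPM). cldne of the enveloping layer was not (441, 505 and 450 CPM). With 3 libraries few orders are possible, and the share of all genes with this order was not counted. The other ectoderm markers ran differently: SOX3 was at 202, 273 and 308 CPM, sox19a at 493, 542 and 501 CPM and SOX2 at 117, 105 and 106 CPM. The part of any of these in the hoxb1b values was not tested.

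hoxc1a was the only Hox gene with enough counts for the main test. It passed the filter through the WT libraries alone, so its direction was set by the filter. It had 6, 31 and 13 counts in WT and 0, 1 and 1 counts in MZsmad4a, or 0.13, 0.31 and 0.15 TPM against 0, 0.01 and 0.01 TPM. Every WT library was above every MZsmad4a library. Over the summed counts the level was 27.3-fold higher in WT, with an exact 95% interval from 7.17 to 232 that covers counting error only. The fitted log2 fold change, whose size depends on the prior count, was −4.44 (SE 0.78), with an unadjusted p of 0.000422 and an edgeR adjusted p of 0.0243 over the 15720 genes tested. This missed the threshold of 0.01 and passed 0.05, at which 1.67% of all tested genes were lower. With DESeq2 the adjusted p was 0.00968 (log2 fold change −4.66), which passed it.

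hoxc1a has by far the longest transcript model among the Hox genes, with a median effective length of 8186 bases, against 1293 for hoxb1a and 1392 for hoxb1b. It therefore ranked first among Hox genes in WT counts but only level with the little-detected HOXB7 in TPM (both 0.197 TPM). In the RefSeq order of genes cbx5, a heterochromatin protein gene, lies next to it. cbx5 was at 371 ± 14.9 CPM in WT against 402 ± 47.1 CPM in MZsmad4a (edgeR adjusted p = 0.606). Whether any of the hoxc1a reads come from neighbouring transcription was not tested.

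**Figure D3:**
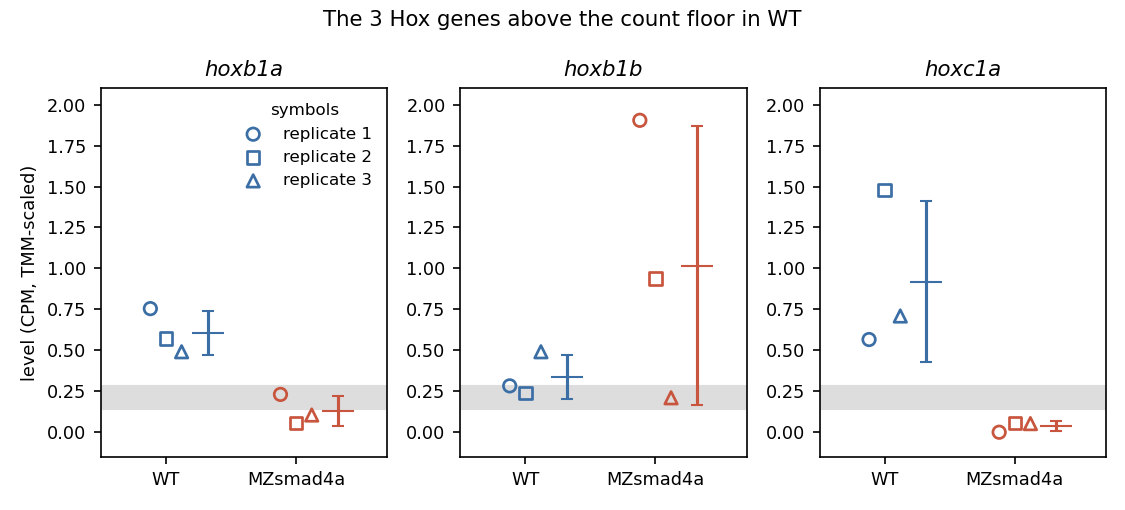
Level of the 3 Hox genes that were on in WT, in CPM scaled by TMM, with 1 symbol per library (replicates 1 to 3) and a mean ± SD bar beside the symbols of each genotype (n = 3). The grey band is the level of 3 counts across libraries (0.143 to 0.283 CPM): hoxb1a and hoxc1a lie lower in every MZsmad4a library than in any WT library, and the hoxb1b libraries of the genotypes overlap.

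Across the Hox genes, none was called by edgeR at an adjusted p under 0.01, in either direction. Only 1 of the 47 could be tested, and its unadjusted p was under 0.05, as was that of 17.5% of all tested genes. Of all 15720 tested genes, 0.490% were lower and 0.223% were higher in MZsmad4a at this threshold. DESeq2 called 1 Hox gene, hoxc1a, lower, of the 3 to which it gave an adjusted p. Of all genes with an adjusted p it called 1.94% lower and 1.78% higher. The 3 Hox genes are too few to compare with these shares, and hoxc1a had its counts almost only in WT. Without a filter, 4 of 33 Hox genes with a count had an unadjusted p under 0.05 (hoxc1a, hoxb1a and HOXB2 lower, hoxb1b higher), against 14.0% of all genes, and none passed after adjustment. The median log2 fold change over the 33 was −0.13, with 19 lower and 14 higher, and over all 24986 genes of that fit it was −0.03.

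In CPM, libraries of the genotypes did not overlap for 5 of the 33 Hox genes with a count. Lower in every MZsmad4a library in CPM were 4 genes, where 9.74% of all genes with a count were, and higher was 1 gene, where 9.00% of all genes were. Besides hoxb1a and hoxc1a, the lower genes were HOXB3 (3, 4 and 2 counts in WT and 1, 0 and 2 in MZsmad4a) and HOXC10 (2, 1 and 1 counts in WT and none in MZsmad4a). HOXB3 had 2 counts in replicate 3 of both genotypes and was separated by library scaling alone (0.109 against 0.105 CPM). In TPM it overlapped, with 0.06 in that WT library and 0.11 in that MZsmad4a library, so 3 Hox genes were lower without overlap in TPM, where 13.5% of all genes with a count were. The higher one was HOXC6 with identifier ENSDARG00000101954, with no count in WT and 3, 1 and 1 counts in MZsmad4a. HOXC10 and this HOXC6 stayed at or below 3 counts in all libraries, too few for a fold change.

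Among the anterior genes outside group 1, HOXB2 had the highest count in a library (5) and HOXB3 the most counts summed over WT (9). Their mouse homologues are expressed in the hindbrain from rhombomere 3 and rhombomere 5 backwards. HOXB2 had 0, 5 and 1 counts in WT and none in MZsmad4a. Its counts thus came almost all from WT replicate 2, the deepest library. hoxc3a was seen in replicate 3 alone, with 4 counts in WT and 2 in MZsmad4a. The anterior genes together held 22, 57 and 38 counts in WT and 38, 20 and 11 counts in MZsmad4a.

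The central groups, which specify the trunk, held few counts. Groups 4 and 5 had no count in any WT library, and in MZsmad4a they had 1 count for HOXD4 and 1 for each of the 2 HOXB5 identifiers, all in replicate 1. The second HOXC6 identifier, ENSDARG00000070343, was the exception, with 0, 5 and 5 counts in WT and 0, 0 and 2 in MZsmad4a, and the genotypes overlapped. HOXB7, the only member of group 7, had 0, 1 and 2 counts in WT and none in MZsmad4a. hoxb8b had 0, 0 and 4 counts in WT and 1, 1 and 2 counts in MZsmad4a. Together the 15 central genes held 22 counts in WT and 14 in MZsmad4a.

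The posterior groups, which are used last and pattern the tail and fins, held counts as low as those of the central groups. Their 22 genes gave 24 counts in WT and 28 in MZsmad4a, and none exceeded 3 counts in a library. HOXC11 and HOXD9 had the same values, 0, 1 and 1 counts in WT and 3, 1 and 0 in MZsmad4a. HOXC12 with identifier ENSDARG00000103133 had 0, 1 and 3 counts in WT and 1, 0 and 0 in MZsmad4a. HOXB13 had counts in MZsmad4a alone (0, 2 and 2). Group 13 as a whole had 2 counts in WT and 7 in MZsmad4a.

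By cluster letter, the c genes held 12, 40 and 30 counts in WT and 10, 6 and 7 counts in MZsmad4a, and hoxc1a accounted for most of the WT counts. The b genes held 16, 28 and 29 counts in WT and 41, 21 and 14 counts in MZsmad4a. The a and d genes were sparse, with 5 and 3 counts in WT and 1 and 11 counts in MZsmad4a. In all, the 47 genes summed to 3.25 ± 0.116 CPM in WT and to 2.07 ± 1.12 CPM in MZsmad4a, where the replicates stood at 3.35, 1.60 and 1.26 CPM. Replicate 1 of MZsmad4a was thus narrowly above the WT libraries (3.11, 3.29 and 3.33 CPM) and the other MZsmad4a libraries were below. Unscaled, it held 58 Hox counts against 33, 69 and 61 in WT, so its place above WT replicates 2 and 3 came from library scaling. In TPM the sums were 3.57 ± 0.650 and 2.71 ± 1.25.

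In contrast to the Hox genes, some of the factors known to act with them or upstream of them were well expressed, and others had few or no counts. Mean WT levels over the lists below ran from 0 to 574 CPM. Lists of these factors and of the Evx genes at the ends of Hox clusters held 45 genes. The lists were chosen with earlier results of these data known. Of these, 27 could be tested, where 48.7% of all listed genes were. At an edgeR adjusted p under 0.01, 2 of the 27 were lower in MZsmad4a and none was higher. Of all tested genes, 0.490% were lower and 0.223% were higher. The median log2 fold change over the 27 was −0.10, against −0.01 over all tested genes. The 2 lower genes were cdx4, the 1 caudal gene analysed here, and eve1, an even-skipped gene at the 5′ end of a zebrafish hoxb cluster. The paper had already named eve1 among the lowered BMP targets in these same libraries. The number called in the lists is therefore not independent of the data. These are bulk samples, so fewer cells expressing a gene and less RNA per cell cannot be told apart.

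cdx4, which activates trunk Hox genes, was at 195, 168 and 173 CPM in the WT replicates and at 80.8, 66.3 and 62.5 CPM in the MZsmad4a replicates. The libraries did not overlap, and the log2 fold change was −1.36 (SE 0.12, edgeR adjusted p = 0.00202). It no longer passed 0.01 without MZsmad4a replicate 2 (adjusted p = 0.0158), MZsmad4a replicate 3 (0.0101) or WT replicate 2 (0.0106). eve1, a gene of the ventral margin, was at 117, 124 and 128 CPM in WT against 30.9, 41.1 and 34.0 CPM in MZsmad4a. Its log2 fold change was −1.80 (SE 0.13, edgeR adjusted p = 0.000686), and it passed 0.01 without any 1 of the 6 libraries. The other Evx genes, at the ends of other Hox clusters, could not be tested.

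Some DNA-binding partners of Hox proteins were well expressed in both genotypes, and others had few counts. Of 6 Pbx genes 2 could be tested, and the highest, pbx4, averaged 370 ± 18.5 CPM in WT against 364 ± 16.9 CPM in MZsmad4a (edgeR adjusted p = 0.911). Of 8 Meis and Prep genes 5 could be tested, and the highest, pknox1.1, was at 67.8 ± 8.93 and 48.6 ± 6.47 CPM (adjusted p = 0.134). None of the tested partner genes passed the threshold. In CPM, pknox1.1, pbx1b and pbx3b were lower in every MZsmad4a library, and no partner gene was higher in all of them. Of all genes with a count, 9.74% were lower in this way. pbx1b had 3, 13 and 15 counts in WT and 3, 4 and 2 in MZsmad4a, so library scaling alone separated it. pbx3b had 4, 5 and 6 counts in WT and 3, 0 and 1 in MZsmad4a. Both had too few counts for the main test.

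Of the retinoic acid genes 10 of 14 could be tested and none passed the threshold. The highest was RXRB with identifier ENSDARG00000078954, a retinoid receptor gene, with 168 ± 9.81 CPM in WT against 204 ± 4.19 CPM in MZsmad4a (edgeR adjusted p = 0.115). ALDH1A2, the enzyme that makes retinoic acid, was at 104, 113 and 110 CPM in WT against 74.5, 69.2 and 63.4 CPM in MZsmad4a. The libraries did not overlap, and its adjusted p of 0.0144 missed the threshold of 0.01 with edgeR and passed it with DESeq2 (3.2e-05). CYP26A1 averaged 50.7 ± 3.21 CPM in WT against 70.8 ± 26.8 CPM in MZsmad4a (adjusted p = 0.378).

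Of the 12 further factors that posteriorize the embryo or segment the hindbrain 8 could be tested and none passed the threshold. The highest was tbxta, the Brachyury gene of the margin, with 574 ± 69.9 CPM in WT against 387 ± 54.7 CPM in MZsmad4a (log2 fold change −0.57, edgeR adjusted p = 0.0646). Its libraries did not overlap. With DESeq2 the adjusted p of tbxta was 0.0152, which missed 0.01, and 0.000648 with a replicate block, which passed it. FGF3 was at 12.3 ± 3.34 and 25.9 ± 4.38 CPM (adjusted p = 0.0577), and DESeq2 called it higher (adjusted p = 0.000661). DESeq2 also called WNT8A (ENSDARG00000078507, adjusted p = 0.00116) and FGF8 (ENSDARG00000003399, 0.00549) higher. The 4 markers of the margin and mesendoderm, tbxta included, had a median log2 fold change of −0.59 and none passed the threshold, and the 4 markers of the ectoderm had a median of 0.41, again with none. DESeq2 called sox19a (adjusted p = 0.00185) and OTX2 (0.00905) of the ectoderm higher. Of the yolk syncytial layer, mxtx2 had a log2 fold change of −2.88 and was lower in every MZsmad4a library (edgeR adjusted p = 0.0286, DESeq2 0.000419), and SLC26A1 was not called (edgeR adjusted p = 0.346). The part of these markers in the Hox and companion values was not tested.

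**Figure D4:**
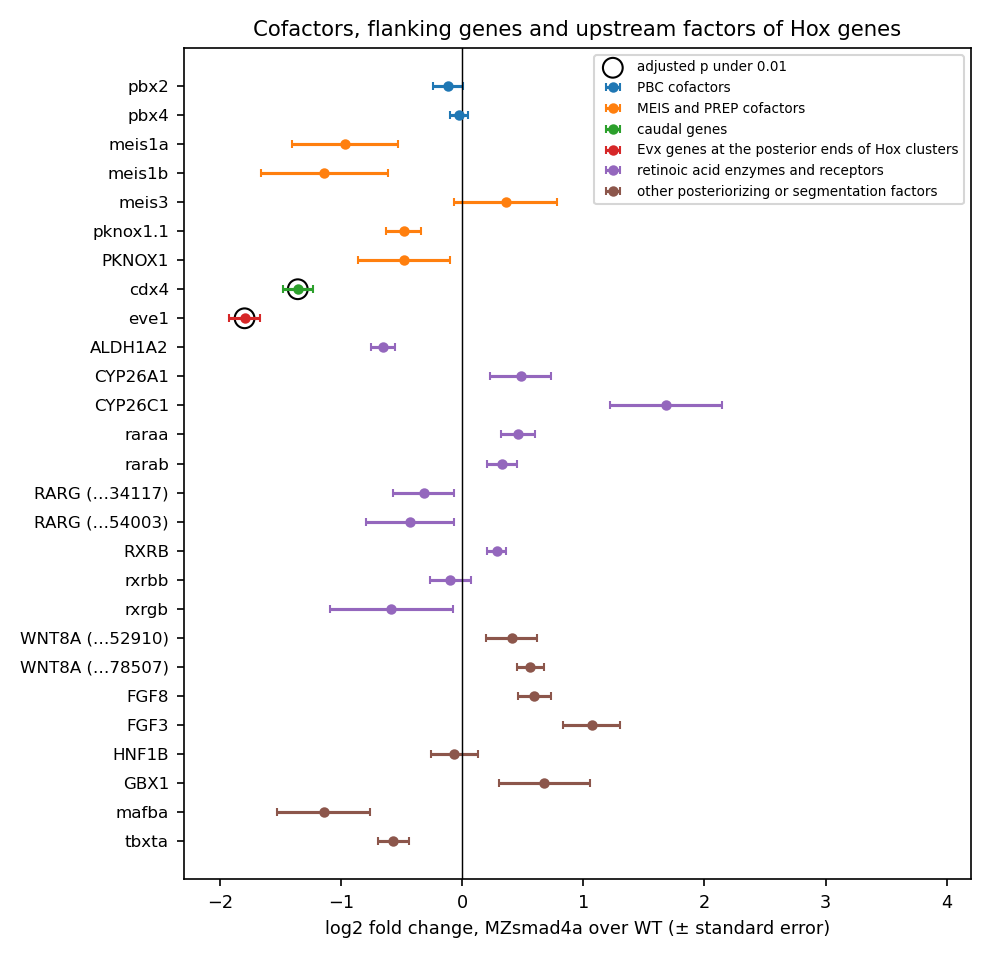
Log2 fold change of MZsmad4a over WT with its standard error for the 27 tested genes of the companion lists (rows, coloured by list), from edgeR on 3 libraries per genotype. Circles mark the 2 genes with an adjusted p under 0.01, cdx4 at −1.36 and eve1 at −1.80, and both are lower in MZsmad4a.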

How the data were processed

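RNA was sequenced from 6 pools of 25 embryos, described by the authors as 3 biological replicates per genotype. Reads were trimmed with cutadapt, aligned with STAR and quantified with RSEM against GRCz11 with an Ensembl annotation. The authors deposited, per gene and library, the expected count, which is an unnormalized RSEM estimate, and the TPM, which RSEM scales by effective length and library. FPKM values were not used. How strand was handled in counting is not given in the sources used here, so reads of overlapping antisense transcripts cannot be told apart. All 282 Hox counts were whole numbers.

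Expected counts were rounded and passed, for all genes, through the quasi-likelihood test of edgeR (4.0.16, R 4.3.3) after filterByExpr and TMM scaling, with genotype as the term and Benjamini-Hochberg adjustment at 0.01. The fits were tested on simulated data, with changes planted only in genes with higher mean counts than any Hox gene. Recovery of a change at levels as low as those of the Hox genes was thus not tested. The study's own test was DESeq2, run here as an alternative (1.42.0, no prior on the fold change), as were limma 3.58.1 on log2(TPM + 1) and log2(TPM + 0.1), other scalings, filters and thresholds, a replicate block and each library left out. CPM used TMM-scaled library sizes. Python 3.11.15 with scipy 1.17.1 gave the exact tests. Symbols came from a table that named 26433 of the 32266 identifiers, and for some companion genes and for smad4a and smad4b from the paper. A further Hox identifier of that table is not analysed here, nor are cdx1a, cdx1b and mylpfa.

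Named with values were Hox genes that could be tested or had a mean of at least 1 TPM in a genotype, the highest 3 by CPM, the highest of a paralog group, those whose libraries did not overlap, and companion genes past the threshold or highest in their list. OTX2, SOX2, SOX3, sox19a, SLC26A1, GBX1, CYP26A1, ALDH1A2, FGF3, FGF8, WNT8A, cbx5 and some sparse Hox genes were named after their values were seen. The same holds for cldne, pbx1b, pbx3b, raraa, rarab, CYP26C1, RARG and the markers of later tissues. The values of 1 Hox gene are not reported here by themselves. The Hox genes and all lists were chosen with earlier results of these data known.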

Additional observations from a re-analysis of the deposited data

How the results depend on the processing

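Depth sets the main limit, since the highest count of a Hox gene in a library was 33. With 10 counts or 1 TPM required in every library, 0 Hox genes were on in either genotype. With 1 count required, 5 were on in each, and with 0.1 TPM 3 were on in MZsmad4a, some of them outside group 1. Leaving out a WT library gave 3 to 4 genes on in WT: the added gene was HOXC6 (ENSDARG00000070343) without replicate 1 and HOXB3 without replicate 3. DESeq2, or a threshold of 0.05 in edgeR, gave 1 Hox gene lower in place of 0, hoxc1a (−4.66 with DESeq2). Its log2 fold change was −4.78 to −3.88 and its adjusted p 0.0435 to 0.0921 when a library was left out, and −1.43 and −0.25 with limma on log2(TPM + 0.1) and log2(TPM + 1), where pseudocounts shrink low levels. A minimum of 10 counts in every library left no Hox gene to fit. For all genes the calls were 77 lower and 35 higher. They were 343 and 315 with DESeq2, 167 and 116 without a filter, 43 and 21 with at least 10 counts, 263 and 198 at 0.05, and 16 to 47 and 8 to 29 when a library was left out. Companion calls were 2 lower and 0 higher. With DESeq2, without a filter, with library size alone and at 0.05 in edgeR, 3 were lower, and the added gene was ALDH1A2. DESeq2 also gave 3 higher: WNT8A (ENSDARG00000078507), FGF8 (ENSDARG00000003399) and FGF3. The second WNT8A identifier, ENSDARG00000052910, was not called (DESeq2 adjusted p = 0.398), and the second FGF8 identifier, ENSDARG00000039615, had no count. Companion calls were 1 higher at 0.05, and 1 to 2 lower when a library was left out. Scaling by RLE or library size alone and truncated counts changed no Hox call. The TPM ratios of hoxb1a and hoxb1b were added after seeing the data and kept their direction, and the count of Hox genes lower without overlap in TPM (3), also added then, was below that in CPM (4).

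The replicate numbers were tried as a block. The same-numbered libraries correlated at 0.11, −0.03 and 0.14 in their deviations from the genotype means. The values of replicates 1 and 3 were the highest of all pairs, and replicate 2 did not correlate best with its own number. With 3 pairs a shared batch can be neither shown nor excluded. The main fit therefore has no block, and the results with it are given beside it. With the replicate block, edgeR called 22 genes lower and 7 higher and DESeq2 278 and 277. No Hox gene was called with it (hoxc1a at −4.40, adjusted p = 0.0489 in edgeR and 0.0359 in DESeq2). Among companions the block in DESeq2 gave 4 lower and 1 higher.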

Other observations

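The genes that flank the Hox clusters, a list added after the data were seen, were mostly transcribed although few Hox reads came from the clusters between them. The nearest 3 genes on each side of the 7 clusters in the RefSeq GRCz12tu order gave 42 names, of which 24 matched 1 identifier exactly. Of these, 18 had at least 3 counts in every library, where 49.0% of all listed genes did. Their median WT level was 6.02 CPM, against 0.452 CPM over all listed genes. The flanking list holds only protein-coding genes matched by name, unlike the full list, so these values are not compared like for like. The highest flanking gene was hnrnpa1a, an RNA-binding protein gene beside a hoxc cluster. It was at 667 ± 44.9 CPM in WT against 688 ± 30.9 CPM in MZsmad4a. srcap, a chromatin remodeller gene beside a hoxb cluster, was at 449 ± 41.1 and 542 ± 39.0 CPM. Of the 17 flanking genes tested with edgeR, 1 was lower in MZsmad4a (eve1, already counted in the companion lists) and none was higher. Of all tested genes, 0.490% were lower and 0.223% were higher. evx2, beside the hoxd cluster, and snx10b, beside a hoxa cluster, had no count in any library.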
